A study of Mus musculus with 6 samples.

Results

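The core transcription factors of the heart were measured in ventricles of E11.5 mouse embryos with and without skNAC, the muscle form of the protein made from the Naca gene. The genes are the homeodomain factor gene Nkx2-5, the zinc-finger factor genes Gata4, Gata5 and Gata6, the MADS-box factor genes Mef2a, Mef2c, Mef2d and Srf, and 2 partners of SRF, the coactivator gene Myocd and the homeodomain-only gene Hopx. They were chosen by name, and all probe sets that the platform annotation gives to a single one of these symbols were taken. This gave all 10 of these genes, out of 18193 single gene symbols on the array, through 28 of the 45101 probe sets of the Affymetrix mouse 430 2.0 array. Of the 28, 22 were bright enough to be tested, with at least 1 for every gene.

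Each genotype was represented by 3 arrays of total RNA from ventricles. Knockout embryos carried a targeted deletion of skNAC, with no tissue-specific driver named, in a line whose labels place death with heart defects by E12.5, and the controls were wild-type littermates. Both genotypes are labelled 129SvEv, and no transgene or further allele is named. Each array is called by the number its label gives: 1, 26 and 66 for knockout, 13, 23 and 57 for wild-type. The labels do not say whether an array held 1 embryo or a pool, so p-values measure only the spread between these samples, which may be technical.

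These factors act together as a network in heart muscle. NKX2-5 and GATA4 bind each other and neighbouring sites on genes such as Nppa, MEF2 proteins bind an A/T-rich element and pass calcium and kinase signals to muscle genes, and SRF binds the CArG box of actin and other cytoskeletal genes. SRF depends on partners for its choice of targets: myocardin drives its muscle genes, whereas HOPX, which has a homeodomain but does not bind DNA itself, restrains it. The network also touches skNAC, because the skNAC partner gene Smyd1 is a known target of MEF2C.

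Some of the genes carry recognition sequences of the network itself next to their start. RefSeq promoter windows, 250 bases before to 50 bases after the gene's start in build GRCm38.p6, matched 7 of the 10 genes by symbol. They were searched on both strands for the CArG box, the MEF2 site, the GATA sites AGATAA and TGATAA, and the NKX2-5 site TNAAGTG. The 3 windows below are those in which a site of SRF or of a MEF2 factor was found, with that site in capitals. Srf lies at chr17:46556113-46556412, the first window of Hopx at chr5:77115074-77115373 and Mef2a at chr7:67372809-67373108, all on the minus strand, and each is written 5′ to 3′ along its gene.
Srf: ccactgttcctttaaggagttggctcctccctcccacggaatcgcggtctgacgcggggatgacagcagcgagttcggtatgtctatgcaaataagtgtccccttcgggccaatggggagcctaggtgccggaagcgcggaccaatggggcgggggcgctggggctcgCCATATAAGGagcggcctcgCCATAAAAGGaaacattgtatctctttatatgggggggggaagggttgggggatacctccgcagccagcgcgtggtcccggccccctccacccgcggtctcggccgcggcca
Hopx: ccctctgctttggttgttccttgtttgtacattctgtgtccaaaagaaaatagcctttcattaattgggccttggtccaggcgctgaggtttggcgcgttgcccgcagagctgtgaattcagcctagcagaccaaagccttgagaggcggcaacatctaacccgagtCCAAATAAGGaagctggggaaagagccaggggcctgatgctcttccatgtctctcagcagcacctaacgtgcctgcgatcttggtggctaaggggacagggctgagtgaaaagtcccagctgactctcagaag
Mef2a: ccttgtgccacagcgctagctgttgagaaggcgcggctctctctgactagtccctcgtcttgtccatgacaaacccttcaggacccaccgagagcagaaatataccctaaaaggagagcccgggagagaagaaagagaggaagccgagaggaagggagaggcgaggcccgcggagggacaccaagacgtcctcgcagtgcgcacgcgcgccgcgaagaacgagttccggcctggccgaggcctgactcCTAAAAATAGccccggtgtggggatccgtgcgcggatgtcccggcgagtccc

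The Srf window held 2 CArG boxes, CCATATAAGG and CCATAAAAGG, and the Hopx window held 1, CCAAATAAGG. A CArG box was present in 1.63% of 32851 windows of this length. The Mef2a window held the MEF2 site CTAAAAATAG, found in 3.19% of all windows. A second Hopx window, at chr5:77095218-77095517, held 1 NKX2-5 site (CACTTGA on the printed strand), a motif present in 3790 of the windows. None of the 7 genes had AGATAA or TGATAA in its windows, against 11.2% and 9.05% of all windows. These matches describe the letters in the windows and are not binding sites shown by these data.

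No member was called different between genotypes, and the main probe set of each of the 10 genes had genotypes that overlapped. Over all genes tested, 10.9% had genotypes that did not overlap, so overlap was the usual case. Of the 22 tested probe sets, 0 passed an adjusted p of 0.05 in limma, as was the case for 0% of the 22518 probe sets tested over the whole array, and the lowest adjusted p of a member was 0.975. Without adjustment, 1 of the 22 had a p under 0.05, on the lower side in knockout, against 4.81% of all tested probe sets (2.62% lower and 2.19% higher). Of the 22, 13 lay below 0, as did 51.8% of all tested probe sets. Taking the brightest tested probe set of each gene as its main one, 6 of the 10 log2 differences (knockout minus wild-type) were above 0 and 4 below, with a median of 0.023 beside 0.0023 for all 11661 genes tested; the sign of Mef2a turned after quantile normalization and that of Mef2c after centring on array medians. The median size of the difference, without regard to sign, was 0.055 for the 10 genes and 0.13 for all genes, and the median standard errors were 0.14 and 0.19.

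The intervals of the main probe sets lay on both sides of 0. On the log2(intensity + 16) scale used throughout, which understates changes of dim probe sets, this held for each of the 10. The end of the interval farther from 0 corresponded to a 1.19-fold change for Mef2a, 1.20 for Hopx, 1.23 for Mef2c, 1.26 for Mef2d and Gata6 and 1.27 for Nkx2-5. It was wider for Gata4 (1.31-fold), Gata5 (1.37), Myocd (1.51) and Srf (1.52). Other tested probe sets of the same genes had wider ends, of 2.01-fold for Mef2c 1451506_at, 2.81 for Mef2a 1442623_at and 3.08 for Mef2d 1437300_at. These ends describe the precision of each estimate and are not the smallest change that the adjusted test would call.

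**Figure D1:**
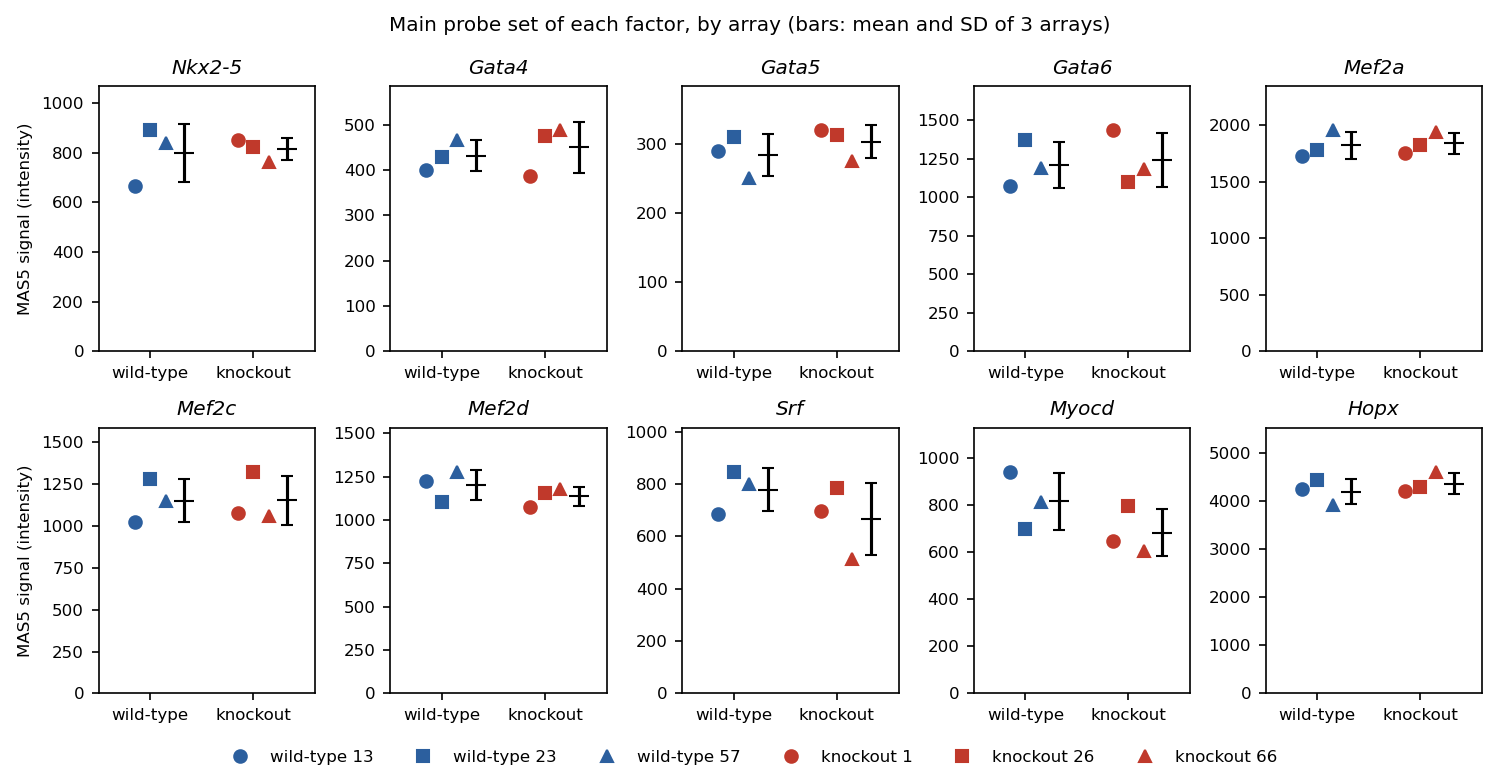
MAS5 signal (y axes, linear intensity from 0, scaled separately per panel) of the main probe set of each of the 10 genes in the 3 wild-type arrays (blue) and 3 knockout arrays (red), with black bars for the mean and SD of each genotype. The genotypes overlap in every panel, and Srf has its lowest point, 514.5, in knockout 66.

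The arrays also differed in measures of their overall quality. Medians ran from 92.0 to 114, and knockout 66 stood apart on the first principal component (38.7% of the variance), at 55.9 against -24.7 to 4.79 for the others. The 3′ to 5′ signal ratio of actin, a measure of RNA length and amplification, was 2.49 to 2.57 in knockout and 2.05 to 2.24 in wild-type arrays, and that of Gapdh 1.28 to 1.45 against 1.12 to 1.20. Both separated the genotypes completely (two-sided exact permutation p = 0.1, the smallest that 20 assignments allow), and their part in the results below was not tested. The brighter probe set of the targeted gene Naca averaged 8892 ± 258 in knockout against 8412 ± 142 in wild-type arrays (SD, n = 3), a log2 difference of 0.08 ± 0.08 (SE). All knockout arrays (8594.6 to 9047.3) were above all wild-type arrays (8285.5 to 8565.7), where 10.9% of all genes did not overlap. The sources used here do not say whether this probe set reads the deleted part. All 7 cardiomyocyte markers were above the detection filter, with summed signals of 61880 to 68891 in knockout and 61714 to 69895 in wild-type arrays. The sums of 6 blood cell markers, at 54661 to 71198 and 49370 to 58636, and of 3 macrophage markers, at 588 to 699 and 679 to 692, overlapped as well.

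Nkx2-5, the homeodomain factor that marks heart muscle from its first formation, had a single probe set. It read 852, 824.5 and 764 in knockout 1, 26 and 66, against 667, 890.2 and 837 in wild-type 13, 23 and 57. The lowest and the highest value were both wild-type, and all knockout arrays lay between them. The genotypes differed by 0.036 ± 0.14 on the log2 scale (SE; 95% interval -0.27 to 0.34), with an adjusted p of 0.995 in limma. It became -0.085 without wild-type 13, so its sign rests on that array.

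The GATA factors, zinc-finger proteins of heart muscle, endocardium and epicardium, also had intervals that included 0. The main Gata4 probe set read 386, 476 and 488 in knockout 1, 26 and 66, against 399, 428 and 467 in wild-type 13, 23 and 57. Knockout arrays were both the lowest and the highest, and the log2 difference was 0.054 ± 0.15 (95% interval -0.28 to 0.39). Without knockout 66 it was -0.0063. A second Gata4 probe set stayed below the filter, with means of 24.6 and 16.5.

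Gata6, which shares many targets with Gata4, read 1435, 1101 and 1185 in the knockout arrays on its main probe set, against 1075, 1372 and 1189 in the wild-type arrays. The highest array was knockout and the lowest wild-type, with the others mixed between them. Its log2 difference was 0.031 ± 0.14 (-0.27 to 0.34). The arrays did not keep their order on the other tested Gata6 probe set: knockout 1, the highest array on the first at a deviation of 0.23 from the mean of the 6 arrays, was the lowest on the second at -0.28. That second probe set averaged 483 ± 70.2 in knockout against 503 ± 17.1 in wild-type (SD, n = 3), a log2 difference of -0.067 ± 0.15. The third Gata6 probe set, below the filter, read 4.40 and 9.90 in knockout 1 and 26 but 154 in knockout 66, against 41.5 to 76.5 in wild-type.

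Gata5, a factor of endocardium and cushion cells, read 320, 314 and 276 in knockout 1, 26 and 66, against 290.3, 310 and 251 in wild-type 13, 23 and 57. Knockout 1 and 26 were above all wild-type arrays and knockout 66 was below wild-type 13 and 23. The log2 difference was 0.093 ± 0.17 (-0.27 to 0.46), and the other tested probe set gave the opposite sign, -0.15 ± 0.21. The first ran from 0.012 without wild-type 57 to 0.16 without knockout 66. Because GATA factors are made in several cell types, fewer cells of a type and less RNA per cell cannot be told apart in these bulk samples. The summed signal of 8 endothelial and endocardial markers, all above the filter, was 4407 to 4644 in knockout and 4334 to 4595 in wild-type, and that of 7 epicardial markers 4428 to 5232 and 4319 to 4743. The sum of 6 cushion mesenchyme markers was lower in all knockout arrays, at 2954 to 4299 against 4307 to 4672, with the nearest ends almost touching. The markers did not move alike. Snai2 (-0.76), Postn (-0.68), Col1a1 (-0.51) and Twist1 (-0.25) were below 0, while Pdgfra (0.14) and Sox9 (0.0033) were above. The part of this sum in the GATA values was not tested.

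The MEF2 genes had the most probe sets, and these did not move alike. On their main probe sets the 3 genes were close to 0. Mef2c, the MEF2 factor whose loss in mice stops heart looping, read 1076, 1321 and 1062 in knockout 1, 26 and 66, against 1025, 1279 and 1151 in wild-type 13, 23 and 57, with nearly equal means of 1153 ± 146 and 1152 ± 127 (SD, n = 3). Its log2 difference was -0.000080 ± 0.13 (-0.30 to 0.30). Mef2a, the broadly expressed member, read 1756, 1822 and 1939.5 in knockout, against 1727, 1783 and 1955 in wild-type arrays, a log2 difference of 0.015 ± 0.11 (-0.22 to 0.25). Its pooled SD within genotypes, 0.083 on the log2 scale, was lower than that of all but 6.19% of genes. That rank, too, covers genes of all signal levels.

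Mef2d, another broadly expressed MEF2 gene, read 1077, 1156 and 1178 in knockout 1, 26 and 66, against 1223, 1104 and 1276 in wild-type 13, 23 and 57. The highest arrays were wild-type 57 and 13 and the lowest was knockout 1, with wild-type 23 below knockout 26 and 66. This gave a log2 difference of -0.076 ± 0.11 (-0.33 to 0.18). It remained below 0 when any 1 array was left out, from -0.13 without wild-type 23 to -0.032 without wild-type 57.

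The largest difference among the tested member probe sets belonged to Mef2a, on its dimmest tested probe set (1442623_at). It read 64.5, 172 and 140.5 in knockout 1, 26 and 66, against 199.9, 196 and 263 in wild-type 13, 23 and 57, so no knockout array reached the lowest wild-type value. Its log2 difference was -0.81 ± 0.31 (-1.49 to -0.13), with an unadjusted p of 0.0235 and an adjusted p of 0.975 in limma. This was the only 1 of the 22 tested member probe sets whose genotypes did not overlap, and 10.5% of all tested probe sets had that property (5.55% lower and 4.97% higher in knockout). Without knockout 66 the main Gata5 probe set joined it, in a comparison of 5 arrays where 24.5% of all probe sets did so. The difference was -0.45 without knockout 1 and between -1.06 and -0.68 when any other was left out. Its values were near the filter, an intensity of 95.2, and the knockout mean was 126.

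The other Mef2a probe sets did not share that difference. Of the remaining 3 tested beside the main one, 2 were set apart by knockout 66 alone, in opposite directions. Probe set 1452347_at read 1093 in knockout 66 and 687 to 779 in the other 5 arrays, and 1427186_a_at read 168 in knockout 66 and 286 to 320 in the others. Their log2 differences of 0.21 ± 0.17 and -0.26 ± 0.22 became 0.024 and -0.0020 without knockout 66. Probe set 1421252_a_at gave -0.048 ± 0.18, and a sixth Mef2a probe set stayed below the filter.

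A like split was present in Mef2c. Probe set 1451506_at read 437, 349 and 197 in knockout 1, 26 and 66, against 353, 400.3 and 540.5 in wild-type 13, 23 and 57, with its lowest value in knockout 66. Its log2 difference of -0.43 ± 0.26 (-1.01 to 0.15) fell in size to -0.12 without that array. The annotation ties it to the same clone as the main Mef2c probe set and 1451507_at, which gave 0.088 ± 0.16, while 1421027_a_at gave 0.075 ± 0.17. A second tested Mef2d probe set (1437300_at) read 48.7 in knockout 26 and 167 to 289 in the other arrays, and its difference of -0.65 ± 0.44 became -0.042 without knockout 26.

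**Figure D2:**
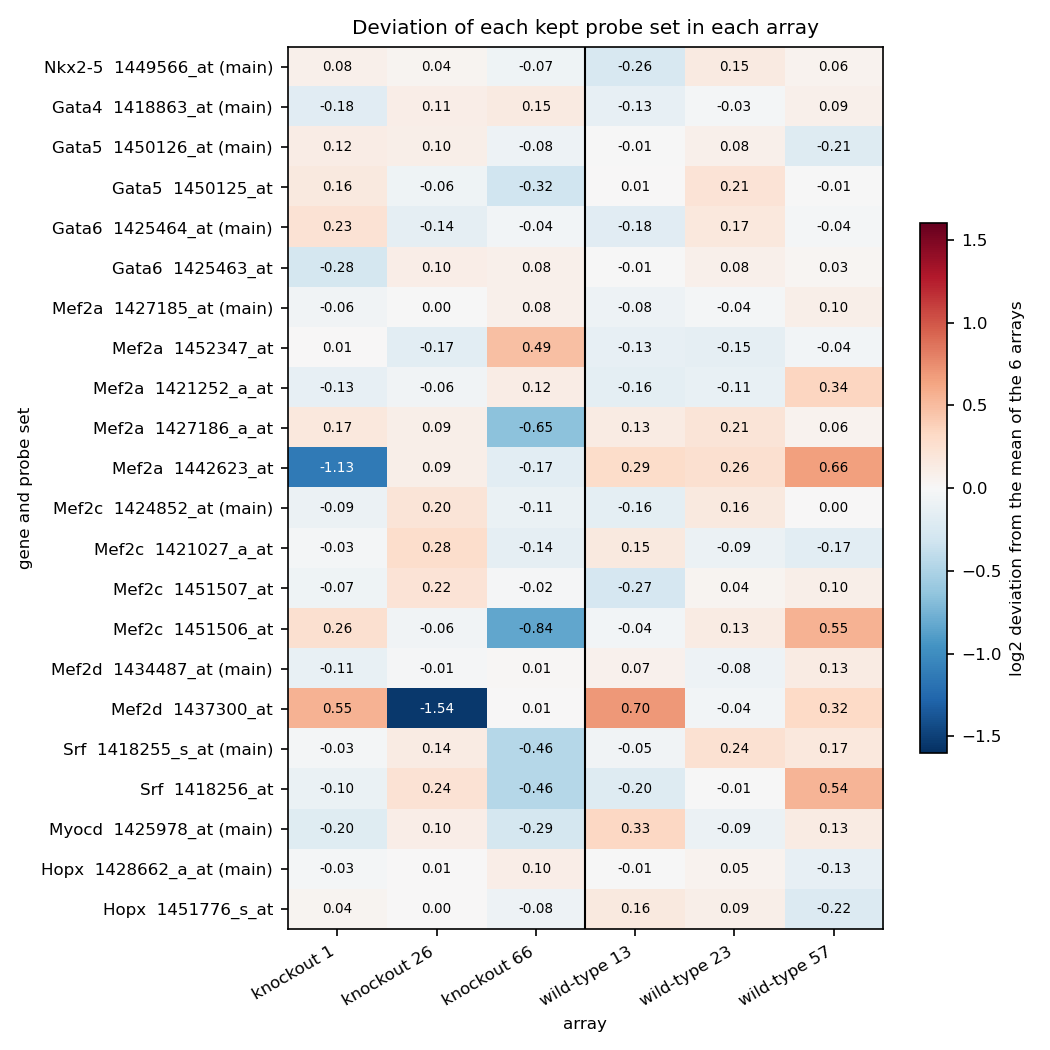
Log2 deviation of each of the 22 tested probe sets (rows, by gene) from its own mean over the 6 arrays (columns, knockout left of the line), with blue for below and red for above the mean. The Mef2a rows show 0.49 and -0.65 side by side in knockout 66, and the lowest cell is Mef2d 1437300_at in knockout 26, at -1.54.

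The split between probe sets of a gene was measured as the range of their deviations within each array, a description chosen after these values were seen. Of 4619 genes with at least 2 tested probe sets, 37.1% had their widest range in knockout 66, and 10.5% to 16.3% in each of the other arrays. Among the 7 members with at least 2, the widest range fell in knockout 66 for 3 (Mef2c, Gata5 and Hopx), in knockout 1 for 2 (Mef2a and Gata6), in knockout 26 for Mef2d and in wild-type 57 for Srf. For Mef2a the range was 1.30 in knockout 1 and 1.14 in knockout 66, and 0.26 to 0.70 in the other arrays.

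**Figure D3:**
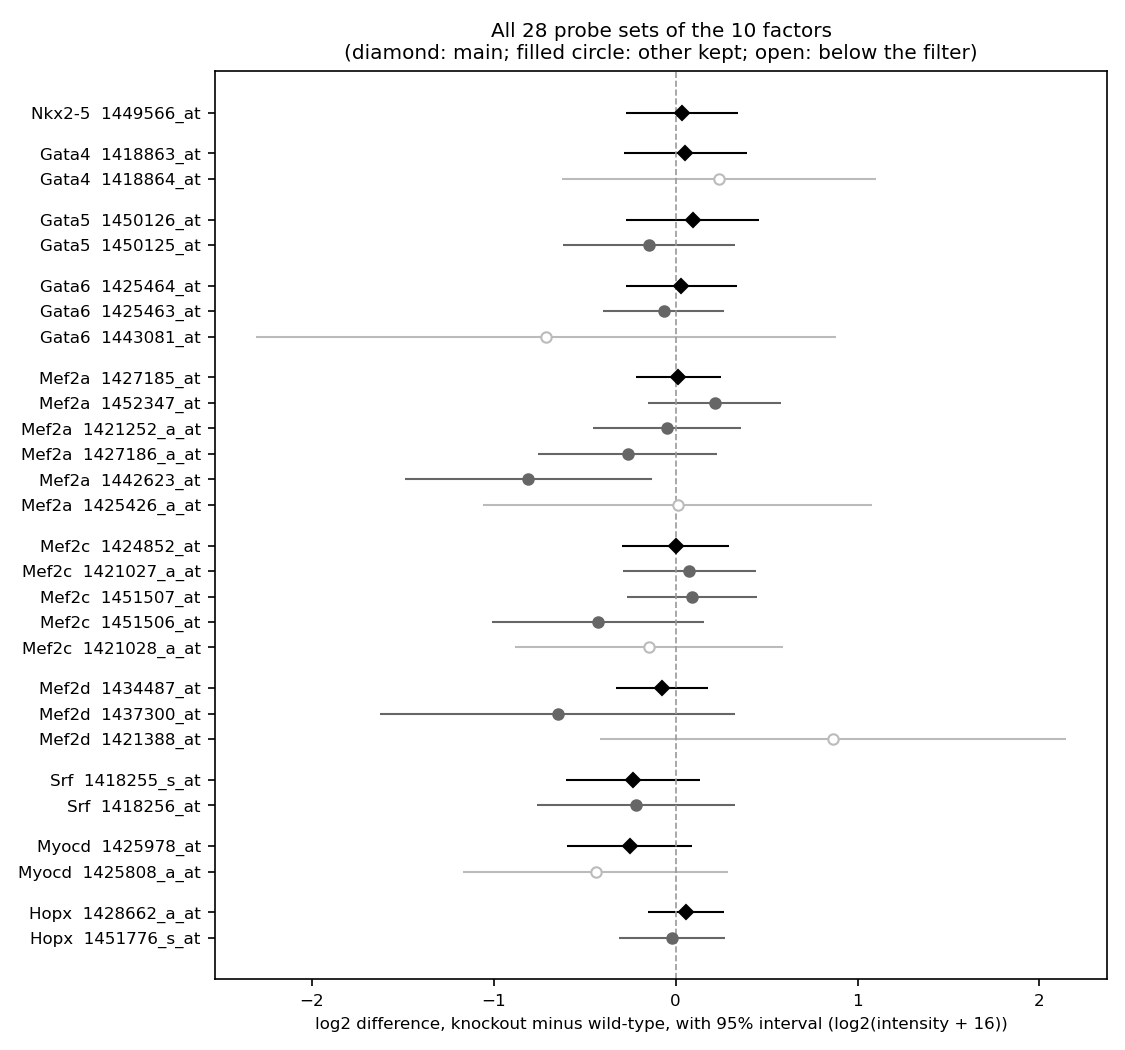
Log2 difference, knockout minus wild-type, with its 95% interval (x axis) for all 28 probe sets of the 10 genes (rows), with diamonds for main probe sets, filled circles for other tested ones and open circles for those below the filter. Mef2a 1442623_at, at -0.81, is the single interval that lies wholly on one side of 0.

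Srf and its coactivator gene Myocd had the largest differences among the 10 main probe sets, both lower in knockout on average and neither called. Srf, the MADS-box factor of actin and growth-response genes, read 698, 785 and 514.5 in knockout 1, 26 and 66, against 687, 845 and 802 in wild-type 13, 23 and 57. Knockout 66 was the lowest array, and knockout 1 and 26 lay within the wild-type range. This amounted to a log2 difference of -0.24 ± 0.17 (-0.61 to 0.13), with an adjusted p of 0.975 in limma. Without knockout 66 it was -0.065.

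Both Srf probe sets were lowest in knockout 66, each at a deviation of -0.46 from the mean of the 6 arrays. The second one, which unlike the main one has no _s_at ending marking possible matches to other genes, averaged 216 ± 55.5 in knockout against 255 ± 75.9 in wild-type (SD, n = 3). Its log2 difference was -0.22 ± 0.25, or -0.042 without knockout 66 and -0.0019 without wild-type 57.

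Myocd, the heart and smooth muscle coactivator of SRF, read 645.5, 797 and 605 in knockout 1, 26 and 66, against 939, 696.5 and 814 in wild-type 13, 23 and 57. The lowest pair of arrays were knockout and the highest pair wild-type, but knockout 26 lay above wild-type 23. Between the genotypes the log2 difference was -0.25 ± 0.16 (-0.59 to 0.09), with an unadjusted p of 0.132 and an adjusted p of 0.975 in limma. It stayed below 0 whichever array was left out, from -0.37 without knockout 26 to -0.15 without wild-type 13. With arrays weighted by quality (0.34 for knockout 66 and 2.53 for knockout 26) it was -0.081, and that of Srf was -0.087. A second Myocd probe set stayed below the filter, at 9.57 ± 1.76 and 20.7 ± 14.8.

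Hopx, the homeodomain-only restraint on SRF, was among the most even genes on its main probe set. It read 4198, 4292 and 4597 in knockout 1, 26 and 66, against 4244, 4438 and 3907 in wild-type 13, 23 and 57. Knockout 66 was the highest array and wild-type 57 the lowest, and the other 4 lay between 4198 and 4438. The log2 difference was 0.057 ± 0.094 (-0.15 to 0.26), and the pooled SD within genotypes of 0.081 was lower than that of all but 5.88% of genes. That rank was taken over genes of all signal levels. The difference was 0.0065 without wild-type 57, 0.019 without knockout 66, 0.098 without wild-type 23 and 0.0078 after quantile normalization. The second probe set gave -0.021 ± 0.13, with log2 SDs of 0.063 in knockout and 0.20 in wild-type. Hopx and Srf both carry a CArG box in the printed windows. Their main log2 differences had opposite signs, but both intervals included 0. The second Hopx probe set lay below 0, as did both Srf probe sets. That Hopx value turned to 0.014 without knockout 66, 0.052 without wild-type 13 and 0.021 without wild-type 23, so its sign is not settled. The Srf probe sets were at -0.065 and -0.042 without knockout 66.

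The level of the factors also varied from array to array within each genotype. Of the 10 main probe sets, 8 lay below their own mean in wild-type 13, 7 in knockout 1 and 6 in knockout 66, against 4 in wild-type 23 and 3 each in knockout 26 and wild-type 57. The share of all genes below their mean in each array was not computed, so these counts describe the 10 genes only. Over the main probe sets, wild-type 13 was the lowest array for 4 genes (Nkx2-5, Gata6, Mef2a and Mef2c), as it was for 13.4% of all genes. Knockout 1, knockout 66 and wild-type 57 were lowest for 2 each, and for 17.8%, 24.9% and 16.6% of all genes. Each of the 6 arrays was the highest for 1 or 2 of the 10 genes, and for 12.2% to 27% of all genes. The median deviation of the 10 genes ran from -0.067 in wild-type 13 to 0.073 in wild-type 57, with the knockout arrays at -0.044, 0.067 and -0.055. Over all genes the same medians lay between 0.0025 and 0.013. A median of 10 genes scatters more than a median of all genes, so these ranges cannot be compared directly.

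The genes most like a member were found by the smallest root mean square difference between mean-centred log2 signals over the 6 arrays, 1 value per array. For Nkx2-5 these were Atf4 (0.027), Lmf2 (0.034) and Clp1 (0.040), where the median gene was at 0.24. For Gata4 they were Top1 (0.036), Lnx1 (0.037) and Prxl2b (0.038), and for Mef2c Lrrc61 (0.044), Mmgt1 (0.044) and Wdfy1 (0.046). For Myocd they were Dbp (0.045), Pla2g4c (0.058) and Zfhx3 (0.062). None of these 12 genes was another member, and with 6 arrays and 11661 genes such closeness is a description only.

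Relatives of the factors outside these 10 were measured too. Of 11 listed, 7 were tested, 5 above 0 and 2 below, with a median of 0.074, and 0 were called in either direction. Mrtfb, a coactivator of SRF related to Myocd, read 882, 1025 and 957 in knockout 1, 26 and 66, against 830.3, 805 and 748 in wild-type 13, 23 and 57. All knockout arrays were above all wild-type arrays, with a log2 difference of 0.26 ± 0.12 and an unadjusted p of 0.0568. Among genes, 10.9% had genotypes that did not overlap. Nkx2-1, a factor of lung and thyroid, gave -0.68 ± 0.42 from means of 88.8 and 137, the erythroid factor gene Gata1 0.16 ± 0.22, and Nkx2-6 0.11 ± 0.29. Nkx2-1 was at -0.17 without knockout 66 and -0.28 with array quality weights, and Gata1 ran from 0.022 without knockout 1 to 0.34 without knockout 66. Without knockout 66, 5 of the 7 were below 0 and the median was -0.17.

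Cofactors and upstream regulators leaned below 0 without a single call. Of 30 listed, 28 were tested, 19 below 0 and 9 above, with a median of -0.13 beside 0.0023 for all genes, of which 49.6% were below 0. With each array left out in turn, 17 to 21 were below 0, and the median was -0.075 without knockout 66. An unadjusted p under 0.05 was reached by 4, against 4.69% of all genes: Camk2d, a calcium-dependent kinase that acts on MEF2 through class II deacetylases, at -0.51 ± 0.19, Elk1, an SRF partner in the growth response, at -0.84 ± 0.34, Hdac4, a deacetylase that represses MEF2, at -0.65 ± 0.28, and Fhl2, a LIM protein that binds SRF, at -0.27 ± 0.11. Elk1 and Hdac4 had knockout means of 79.8 and 87.5, below the filter of 95.2, Elk1 was at -0.53 without knockout 66, and a second Hdac4 probe set gave -0.09. Fhl2 read 1055, 995 and 901 in knockout 1, 26 and 66, against 1205, 1168 and 1181 in wild-type 13, 23 and 57, with no overlap and on the side where 5.45% of genes lay apart. Camk2d was below 0 on its other 3 tested probe sets as well, at -0.48, -0.12 and -0.69.

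Genes of heart muscle known to be driven by these factors gave 20 below 0 and 12 above among 32 tested of 35 listed, with a median of -0.09 and 0 calls. After quantile normalization, which forces 1 distribution on all arrays, 31 of the 32 were below 0 and the median was -0.12, so the share below 0 depends on the scaling. With 1 array left out the median ran from -0.12 without wild-type 57 to -0.056 without wild-type 13. The oxygen-binding protein gene Mb averaged 605 ± 239 in knockout against 1431 ± 204 in wild-type (SD, n = 3; log2 difference -1.30 ± 0.26, adjusted p = 0.642 over genes in limma), and a second, dimmer probe set gave 0.80. Casq2, the calcium store protein, gave -0.79 ± 0.20, and Hspb7, a small heat shock protein of muscle, -0.26 ± 0.12. Myl2, the ventricular myosin light chain, gave 0.23 ± 0.10 and -0.025 after quantile normalization. Smyd1, the MEF2C target that encodes a partner of skNAC, averaged 1027 ± 192 and 1099 ± 7.78, a log2 difference of -0.11 ± 0.14. Of the 32 genes, 6 had genotypes that did not overlap, 4 of them lower in knockout, where 10.9% of all genes did not overlap and 5.45% were lower.

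The SRF targets of smooth muscle and of the growth response were split. Of 19 listed, 16 were tested, 9 below 0 and 7 above, with a median of -0.029, and 0 were called. The median turned to 0.015 without knockout 1 and 0.026 without wild-type 13, and was -0.050 with 10 genes below 0 without knockout 66. The matrix-associated growth regulators Ccn2 and Ccn1 were on the lower side, at -0.68 ± 0.16 and -0.51 ± 0.24, with the other 3 tested probe sets of Ccn1 at -0.34, -0.69 and -0.37. The Ccn1 value was -0.25 without knockout 66, -0.23 with array quality weights and -0.76 without knockout 26. Smooth muscle actin, Acta2, averaged 16586 ± 1132 in knockout against 13743 ± 759.9 in wild-type (0.27 ± 0.09), and the cytoplasmic actin Actg1 gave 0.18 ± 0.08. After quantile normalization they were at 0.11 and 0.07. The summed signal of 4 smooth muscle markers was 20084 to 22460 in knockout and 17220 to 19404 in wild-type arrays, and its part in these values was not tested. Most of that sum was the Acta2 signal just given, so it is not a separate measure. Of the other markers, Tagln was at 0.08 ± 0.12 and Cnn1 at -0.19 ± 0.15, both with overlapping genotypes, and Myh11 stayed below the filter.

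**Figure D4:**
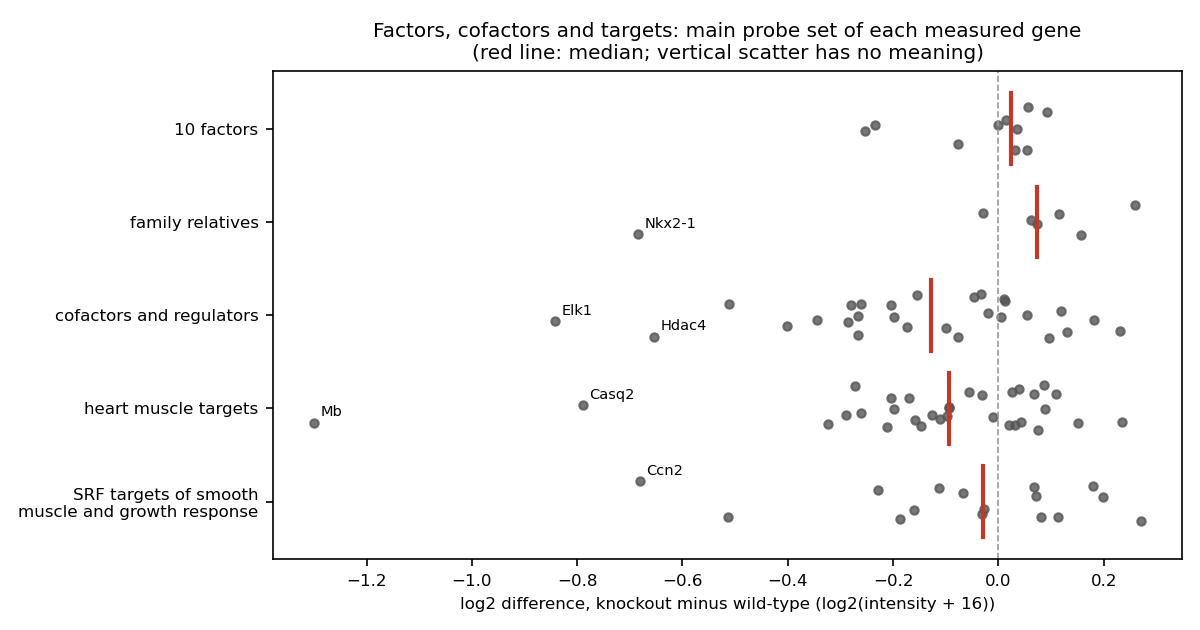
Log2 difference, knockout minus wild-type (x axis), of the main probe set of each tested gene among the 10 factors and in the 4 lists of relatives, cofactors, heart muscle targets and SRF targets (rows), with a red line at the median of each row. The 10 factors span -0.25 to 0.09, while Mb in the heart muscle row lies at -1.30.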

How the data were processed

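The deposited values are linear probe set intensities, 1 column per array. The submitters' processing notes name GCOS and MAS5 as the tools of the authors, without versions or settings. Each array shares a trimmed mean of 250 with the others, so a probe set's signal depends on the total of its own array. Per the labels, 500 ng of RNA was amplified and labelled per sample. The number of arrays limits the precision.

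Intensities were transformed as log2(intensity + 16). Of 45101 probe sets, 64 were controls. Probe sets whose mean log2 value lay above the median were tested (22518, a level of 95.2) with limma 3.58.1 (R 4.3.3; lmFit, trended eBayes), two-sided, with Benjamini-Hochberg adjustment and calls at 0.05. A gene was represented by its brightest tested probe set with 1 symbol. Values of probe sets below the filter come from a fit without it. The fit was tested on simulated data. Members and lists were chosen with earlier results of these data known. All 10 members were named, and in each list the up to 4 genes of smallest p. Promoters are from RefSeq. Alternatives covered the pseudocount, filter, scaling, variance model, array weights, probe set choice and each array left out. Plots were made in Python 3.11.15 (Matplotlib 3.10.9).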

Additional observations from a re-analysis of the deposited data

Results flagged for a closer look

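The 6 markers of endoderm and liver (Afp, Alb, Ttr, Foxa1, Foxa2 and Shh), all below the filter and so outside every comparison, summed to 360.8 to 488 in the knockout arrays and 169 to 291.3 in the wild-type arrays. The lowest knockout sum thus lay above the highest wild-type sum. Among tested probe sets, 10.5% had genotypes that did not overlap, and the share for sums of dim signals was not computed. The single signals were dim, with Alb at 108 ± 19.1 and 67.6 ± 35.8 (SD, n = 3). Afp spread widely, at 95.5 ± 70.4 and 26.1 ± 30.9, and Foxa2 went the other way, at 17.6 ± 6.87 and 49.3 ± 34.4.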

How the results depend on the processing

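Each of the 10 factors was recomputed under 16 alternatives. Of the 160 values, 143 kept their sign, 17 turned and 0 were called, as were 0 of the member probe sets under every alternative that counted them. The filter and variance model alternatives left each log2 difference as it was and could change only the calls. Probe set choice changed nothing for genes with a single tested probe set. The 143 therefore include values whose sign could not turn. No paired analysis was possible because the labels do not say which samples share a litter. The main value of Mef2c, almost at 0, turned to 0.013 with centring on array medians and 0.089 with array quality weights, which took Gata6 to -0.080. Mef2a turned to -0.0091 after quantile normalization, and with the mean over a gene's probe sets Mef2a, Gata6 and Gata5 were at -0.18, -0.018 and -0.027. With 1 array left out the log2 differences ran from -0.10 to 0.078 for Mef2c, -0.024 to 0.066 for Mef2a, -0.077 to 0.12 for Gata6, -0.0063 to 0.16 for Gata4, -0.085 to 0.12 for Nkx2-5 and -0.17 to 0.44 for Nkx2-6. The cause was not tested. Myl2 turned to -0.025 after quantile normalization, and Mb reached -1.72 (adjusted p = 0.0364 in limma) with array quality weights. Those weights gave 6 called probe sets and 8 called genes over the whole array, and leaving out 1 array gave 0 to 2 of each. Leaving out knockout 66, chosen as an alternative after seeing the data, gave 2 non-overlapping member probe sets (Mef2a 1442623_at and the main one of Gata5), where 24.5% of all tested ones did so with 5 arrays, and 5 of 7 relatives below 0.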

Other observations

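Genes of the fixed lists that carry a CArG box in the same promoter window were looked up after the lists were described. In the heart muscle list these were 4 of the 32 genes with a window, Actc1, Acta1, Myl3 and Myl7, and their log2 differences were 0.15 ± 0.09, -0.010 ± 0.10, 0.07 ± 0.09 and 0.11 ± 0.08 (SE). Among the SRF targets they were 4 of 14, Vcl, Egr2, Actg1 and Fhl1. Vcl, which anchors actin at junctions, was at -0.027 ± 0.10 and Fhl1, a LIM protein of muscle, at 0.07 ± 0.15, while Egr2 stayed below the filter. Srf itself, at -0.24 ± 0.17, was the lowest of the tested genes with the box that are named here, but was at -0.065 without knockout 66. After quantile normalization 31 of the 32 tested heart muscle genes were below 0. The values above 0 of Actc1, Myl3 and Myl7 thus cannot all have kept their sign.

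Of the cofactors of GATA4 and NKX2-5 that pattern the ventricle, 4 given here were near 0 or spread widely between arrays. Zfpm2, the GATA4 partner FOG2, averaged 765 ± 32.4 in knockout against 758 ± 11.4 in wild-type (SD, n = 3; log2 difference 0.012 ± 0.12), and Hand2, a factor of the right ventricle, 3217 ± 189.6 and 3098 ± 229 (0.05 ± 0.10). Tbx5 read 302 ± 54.0 and 377 ± 140.1 (-0.26 ± 0.24), with its highest value, 532, in wild-type 23. Tbx20 read 2435 in knockout 66 and 3266 to 3615 in the other 5 arrays, a log2 difference of -0.17 ± 0.14. These 4 genes were chosen after their values were seen. Hand1, from the same list, was neither near 0 nor widely spread, at 304 ± 33.8 and 352.5 ± 42.0 (-0.20 ± 0.17).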
